A study of Homo sapiens with 6 samples.

Results

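An intron can end at more than 1 place. Where a 5′ splice site can be joined to one of several nearby 3′ splice sites (acceptors), the choice decides whether the stretch between them is kept in the mRNA or removed with the intron. The pairs described here are those whose acceptors lie 10 to 100 nt apart at a distance that is not a multiple of 3, so that the 2 mRNAs differ in reading frame wherever the stretch is translated. Both junctions of a pair had to be annotated in the deposited tables and carry a motif code of 1 to 6, with the same chromosome, strand and 5′ splice site, and no annotated acceptor of that 5′ splice site could lie between them. Each pair needed 20 or more uniquely mapped reads in every library, and each of its acceptors 10 or more reads over all libraries. Of 2807 listed pairs at these distances, 920 met the read minimums. They made up 18% of the 5118 neighbouring acceptor pairs, annotated or not and at most 100 nt apart, that were tested together. The members were selected on read numbers, distance and annotation and not on a difference between the groups, though the set was proposed with earlier results of these data known.

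The libraries came from K562, a human chronic myeloid leukaemia cell line. In 3 of them (called wild type here) the cells carried a U2AF1 wild type knock-in, and in the other 3 they carried U2AF1 S34F, in which a phenylalanine takes the place of a serine. Polyadenylated RNA was sequenced as paired-end reads. The labels name no clone, culture or day, so p-values measure the spread between these libraries, which may be technical. Junction counts do not show the substitution itself, and the genotype labels were not checked against sequence.

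U2AF1 is the small subunit of U2AF, the factor that marks the 3′ end of an intron for the spliceosome. Its large partner binds the pyrimidine tract, and U2AF1 contacts the AG at the intron's last bases. The S34F substitution lies in a zinc finger of U2AF1 that touches the RNA next to that AG, and it recurs in myelodysplastic syndromes and leukaemias. A shift of reading frame often brings a premature stop codon, and mRNAs with such a stop can be degraded by nonsense-mediated decay, so junction reads count the transcripts that remain. Genes, coding regions and the bases at the acceptors were not analysed here, and pairs are named by the last intron base at each acceptor in hg19, the build named in the submitters' processing notes.

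The libraries held between 18074706 (S34F replicate 2) and 39279169 (S34F replicate 3) uniquely mapped spliced reads. A member had a median of 137 reads per library, and 276 of the 920 members had under 50 reads in at least 1 library. The members used 1813 different acceptors and 902 different 5′ splice sites, and 44 shared an acceptor with another member. The measured value is the upstream share, the percentage of the pair's reads that joined the acceptor nearer the 5′ splice site. For the 22 pairs given below with the largest changes, the 95% Clopper-Pearson interval of the share in a library was from 4.99 to 37.4 percentage points wide, with a median of 19.2. Such intervals cover counting error only, since the reads carry no molecular identifiers.

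In most members 1 acceptor took nearly all reads. The upstream share in wild type was over 90% in 408 members, under 10% in 298 and in between in 214. The median upstream share over the members was 79.9%, 80.6% and 82.2% in the wild-type libraries and 78.8%, 74.7% and 75.6% in the S34F libraries. These groups did not overlap, but the members are not replicates and no test was made on the medians. The medians over all pairs tested did not overlap either. They were 93.1%, 93.6% and 93.5% in the wild-type libraries and 92.0%, 91.5% and 91.7% in the S34F libraries. The lack of overlap is thus not particular to the members. The shift of the median member was small. The median change from wild type to S34F was -0.41 percentage points (middle 50% of members from -3.08 to 0.49), beside -0.13 over all pairs tested, and 724 members changed by less than 5 points.

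A change in acceptor choice was detected in a minority of members, mostly towards the downstream acceptor. The other members were not shown to be unchanged. A pair was called when its adjusted p (edgeR quasi-likelihood test, Benjamini-Hochberg over all 5118 pairs) was under 0.05 and the group means differed by at least 10 percentage points. By this rule 52 of the 920 members were called, which is 5.65%, beside 2.85% of all pairs tested. The upstream share fell in 42 of them (4.57%, beside 2.42% of all pairs) and rose in 10 (1.09%, beside 0.43%). The falls were of up to 30.8 points with a median of 16.2, and their median change in log2 odds was -1.88. The rises were of up to 27.9 points with a median of 17.3. In 40 of the 42 falls every S34F library lay below every wild-type library, and in 9 of the 10 rises every S34F library lay above. The calls were made on these same libraries. Lack of overlap in a called pair, here and below, thus describes the values and is not further support. Over all members, called or not, the S34F libraries lay wholly below in 187 (20.3%, beside 14.6% of all pairs) and wholly above in 69 (7.50%, beside 5.86%).

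The number of calls depended on the tool. DESeq2 called 11 of the 52 pairs and limma on log2 odds 2, all of them falls. An unadjusted limma p under 0.05 was found in 194 members. The share of all pairs tested that passed with these tools was not counted, so these numbers have no background beside them. Without S34F replicate 3, the deepest library, the edgeR fit called 34 members, 30 of them falls.

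**Figure D1:**
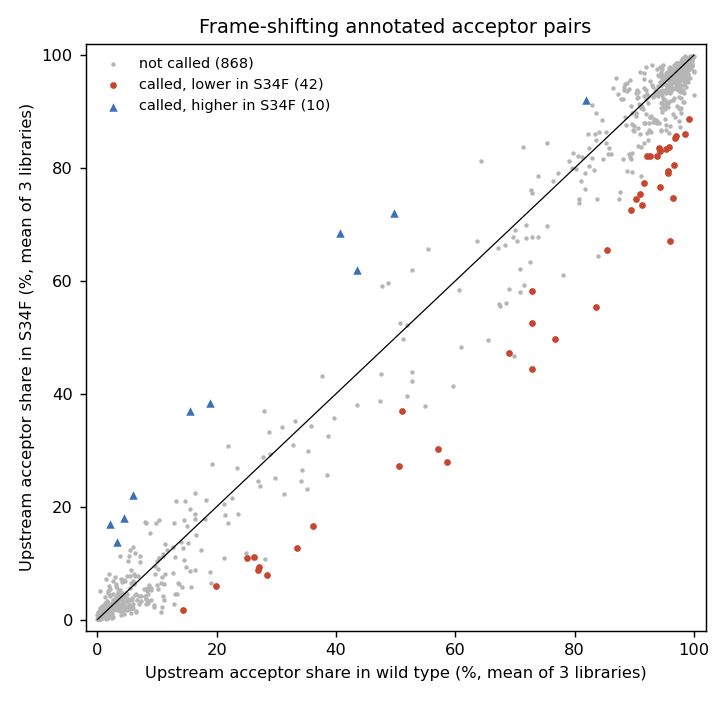
Mean upstream share in wild type (horizontal axis, %) against S34F (vertical axis, %) for the 920 members, 1 point each; the line marks equal shares. The 42 called falls lie below the line along its whole length above 14%, and the 10 called rises lie above it, 9 of them at wild-type shares under 50%.

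Among the falls the upstream acceptor was usually the main one in wild type. Of the 42 falls, 21 started above 90% in wild type, 12 between 50% and 90%, and 9 at 50% or less. Over all pairs tested, 57 of the 124 called falls started above 90%. The upstream acceptor was over 50% in 521 of the 920 members. A fall of 10 points cannot start under 10%, where 298 members lay, so this division follows in part from the rule. In 7 falls the majority passed from the upstream to the downstream acceptor. The largest fall was on the minus strand of chromosome 17, at the acceptor at 38209911 and the one 22 nt further on at 38209889. Its upstream share was 53.1%, 55.6% and 67.1% in the wild-type libraries and 30.9%, 29.4% and 23.2% in the S34F libraries, so the downstream acceptor became the main one in every S34F library. The means were 58.6% ± 7.45 and 27.8% ± 4.12 (SD, n = 3 each), a change of -1.90 in log2 odds (SE 0.33, edgeR adjusted p = 7.66e-05), from 85 to 190 reads per library. A further annotated acceptor lay 22 nt upstream, at 38209933, and took few reads in either group: set against 38209911 its share was 3.03% ± 2.12 in wild type and 3.77% ± 4.74 in S34F (edgeR adjusted p = 0.957). The fall given above is between the inner and the last acceptor. With so few reads at the further acceptor, its own use was not shown to be unchanged.

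On the same chromosome and strand, the acceptor at 62479117 was used almost alone in wild type. It took 97.2%, 96.1% and 94.7% of the reads there, against 76.0%, 66.7% and 58.3% in S34F, with the rest going to an acceptor 25 nt downstream at 62479092. The mean fell from 96.0% ± 1.24 to 67.0% ± 8.84, a change of -3.69 in log2 odds (SE 0.62, edgeR adjusted p = 4.36e-05), and this pair passed with DESeq2 (adjusted p = 0.0148) and limma (0.043) as well. Coverage was thin, at 25 to 72 reads. A like pattern was seen on the minus strand of chromosome 11, where the acceptor at 10877805 took 96.5%, 100% and 92.9% of the wild-type reads, against 78.0%, 72.1% and 74.1% with S34F. In wild-type replicate 2 the acceptor 52 nt downstream, at 10877753, had 0 of 72 reads, which allows a share of up to 4.17%. The fall from 96.4% ± 3.57 to 74.7% ± 2.99 had an edgeR adjusted p of 0.0002. At both sites a downstream acceptor that was rare in wild type took a sizeable part of the reads in S34F, with no overlap between the groups.

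Other large falls began from a mixed use of both acceptors. At 51018260 on chromosome 22 (minus strand), 28 nt before 51018232, the wild-type shares were 72.4%, 70.5% and 76.0%, against 48.5%, 35.5% and 49.3% with S34F (edgeR adjusted p = 0.000943). At 249151697 on chromosome 1 (minus strand), 61 nt before 249151636, they were 75.4%, 87.8% and 87.5%, against 52.9%, 56.7% and 56.7% (adjusted p = 0.00462). At 144356873 on chromosome 8 (plus strand), only 16 nt before 144356889, they were 76.4%, 84.9% and 68.8%, against 58.3%, 44.0% and 46.8% (adjusted p = 0.0017). At these 3 sites the upstream acceptor thus went from clearly the main one to near equal use, with no overlap between the groups. At a pair just 13 nt apart on the minus strand of chromosome 1, at 25568918 and 25568905, the S34F libraries were nearly identical at 30.3%, 29.9% and 30.7%. The wild-type libraries there were spread from 44.6% in replicate 1 to 60.2% and 66.7% (adjusted p = 0.000354).

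A few of the largest falls lost their call when 1 library was left out. The pair at 72167116 and 72167171 on chromosome 18 went from 69.0% ± 7.60 to 47.2% ± 5.54 (adjusted p = 0.00487), but had an adjusted p of 0.115 without S34F replicate 3. At 138291827 and 138291775 on chromosome 3, S34F replicates 2 and 3 were at 6.25% and 7.59% and replicate 1 at 24.4%, against 31.6% to 36.7% in wild type. The adjusted p of 0.00712 went to 0.0771 without S34F replicate 2 and to 0.128 without replicate 3. At 105930752 and 105930799 on chromosome 14 the S34F libraries ranged from 37.8% to 66.2% around a mean of 52.5%, below 72.9% ± 2.07 in wild type. There the adjusted p of 0.0162 went to 0.178 without S34F replicate 2 and to 0.0826 without replicate 3. These calls were thus lost without S34F replicate 2 or 3, though the shares still fell. On chromosome 18 the change was -18.6 points without replicate 3. Without replicates 2 and 3 in turn it was -17.4 and -18.1 on chromosome 3, and -13.1 and -20.9 on chromosome 14. The pair at 76160175 and 76160213 on chromosome 17 (85.4% ± 6.26 to 65.6% ± 11.1, adjusted p = 0.0462) had 25 to 100 reads and lost its call without wild-type replicate 1 (0.137), wild-type replicate 3 (0.109), S34F replicate 2 (0.0534) or S34F replicate 3 (0.403). The pair at 34614144 and 34614190 on chromosome 21 (36.2% ± 4.84 to 16.5% ± 2.30, adjusted p = 0.0178) lost it without wild-type replicate 3 (0.073) or S34F replicate 3 (0.118).

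Where the upstream acceptor was already the minor one, it could become rare. The acceptor at 126114255 on chromosome 8 (plus strand), 37 nt before 126114292, had 28.3%, 29.6% and 27.2% of the wild-type reads, against 11.2%, 8.64% and 3.60% with S34F (edgeR adjusted p = 0.000107). At 21460250 and 21460282 on the plus strand of chromosome 14, with 263 to 763 reads per library, the share went from 27.1% ± 3.29 to 9.23% ± 3.40 (adjusted p = 8.54e-07). The acceptor at 10426230 on the minus strand of chromosome 19 went from 14.3% ± 5.89 to 1.73% ± 0.292 (adjusted p = 0.00273). Its pair was called in 4 of the 6 fits that leave out a library, and not by DESeq2 (adjusted p = 0.0765) or limma (0.0581). After the fall, 5 upstream acceptors held under 10% of their pair's reads in S34F. Another 28 falls lay beyond the 14 largest, and the chromosome 14 and 19 pairs just named are among them, chosen after their values were seen.

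**Figure D2:**
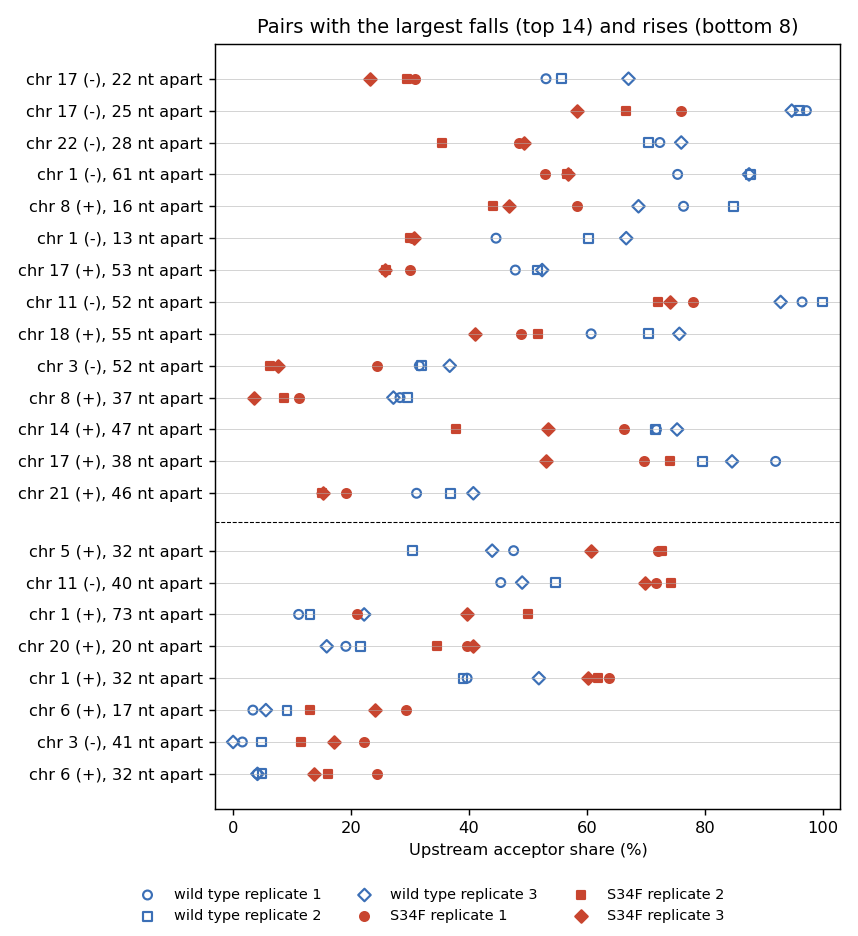
Upstream acceptor share (%) in each of the 6 libraries for the 14 pairs with the largest falls (above the dashed line) and the 8 with the largest rises (below it); open blue symbols are wild type, filled red symbols S34F, and the symbol shape gives the replicate. In all 14 falls the S34F libraries lie left of the wild-type libraries, and the groups overlap in 1 of the rises, that on chromosome 1 with acceptors 73 nt apart.

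A 5′ splice site on the plus strand of chromosome 17, at 16342729, gave 2 of the called falls and showed the shift over 3 annotated acceptors in a row. The acceptors are at 16342841, 16342894 (53 nt on) and 16342973 (132 nt on). In wild type the reads to these 3 acceptors were divided nearly evenly. The first took 31.1%, 35.8% and 36.3%, the middle 33.9%, 33.7% and 33.0%, and the last 35.1%, 30.5% and 30.7%. In S34F the first took 13.9%, 10.8% and 11.7% and the last 53.5%, 58.5% and 54.3%, whereas the middle stayed at 32.5%, 30.7% and 33.9%. Reads thus left the most upstream acceptor and were found at the most downstream one. As pairs, the first against the middle acceptor went from 50.6% ± 2.42 to 27.2% ± 2.41, by edgeR at an adjusted p of 1.34e-06. The middle against the last went from 51.1% ± 1.76 to 36.9% ± 2.17, at an adjusted p of 0.00279. Both share the middle junction and are not independent. This 5′ splice site is mostly joined elsewhere: the first pair held 6.08% of its reads in wild type.

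**Figure D3:**
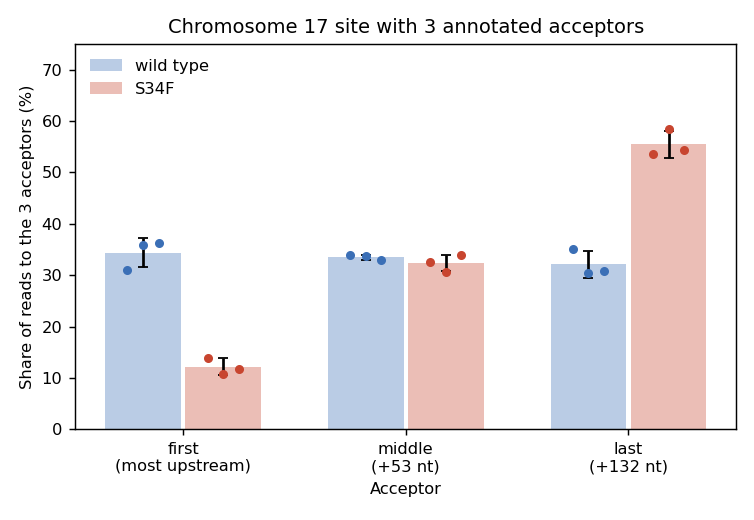
Share (%) of the reads joining the chromosome 17 5′ splice site to its 3 neighbouring annotated acceptors; bars are means of 3 libraries, error bars SD, points single libraries. The first acceptor is at 34.4% in wild type and 12.2% in S34F, the middle at 33.5% and 32.4%, and the last at 32.1% and 55.5%.

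The 10 rises mostly concerned an upstream acceptor that was the minor one in wild type. It was at 50% or less in 9 of the 10 and under 10% in 4. Over all pairs tested, 7 of the 22 called rises started under 10%. The upstream acceptor was at 50% or less in 399 of the 920 members. A rise of 10 points cannot start above 90%, where 408 members lay, so this division too follows in part from the rule. The largest rise was at 112203068 on the plus strand of chromosome 5, 32 nt before 112203100, with wild-type shares of 47.6%, 30.4% and 43.9%, against 72.1%, 72.7% and 60.7% with S34F, a change of 1.66 in log2 odds (SE 0.24, edgeR adjusted p = 3.27e-06). At 6501694 and 6501654 on the minus strand of chromosome 11, 40 nt apart, the wild-type shares were 45.4%, 54.7% and 49.0%, against 71.8%, 74.3% and 69.8% with S34F (adjusted p = 0.00485). By the group means, the upstream acceptor became the main one at both, with no overlap between the groups. At 13773805 and 13773825 on chromosome 20, 20 nt apart, the share went from 18.9% ± 2.86 to 38.3% ± 3.27 (adjusted p = 0.013, but 0.0579 without wild-type replicate 3 and 0.0893 without S34F replicate 3).

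Rises also reached acceptors that were nearly silent in wild type. On the plus strand of chromosome 6, the acceptor at 24415243, 17 nt before 24415260, went from 3.35%, 9.13% and 5.56% to 29.3%, 13% and 24.1% with S34F (edgeR adjusted p = 0.000491). The acceptor at 7395253, 32 nt before 7395285 on the same strand, went from 4.10%, 4.90% and 4.12% to 24.4%, 16% and 13.8% (adjusted p = 0.000628). That at 48670559 on the minus strand of chromosome 3, 41 nt before 48670518, went from 2.11% ± 2.43 to 17% ± 5.34 (adjusted p = 0.00637, 0.0514 without S34F replicate 3). Its wild-type replicate 3 had 0 of 41 reads, which allows up to 7.32%. In each case every S34F library lay above every wild-type library. Several rises lost their call when 1 library was left out. The pair at 26156035 and 26156108 (15.5% ± 5.94 to 36.9% ± 14.7, adjusted p = 0.0241) lost its call without wild-type replicate 1 (0.11), wild-type replicate 2 (0.0633), S34F replicate 2 (0.158) or S34F replicate 3 (0.157). The pair at 2520360 and 2520392 (43.5% ± 7.24 to 62.0% ± 1.76) stood at an adjusted p of 0.0499 and lost its call without any of 5 libraries, wild-type replicates 1 and 2 and all S34F replicates, with adjusted p-values from 0.0964 to 0.216. The smallest rises, at 95850690 on chromosome 8 (82.0% to 92.0%, adjusted p = 0.0499) and 87485705 on chromosome 7 (3.34% to 13.7%, adjusted p = 0.0483), were called in 0 of the 6 fits that leave out a library.

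Smaller shifts also passed the adjusted p threshold. In all, 95 members did (10.3%, beside 6.21% of all pairs), 73 lower and 22 higher, and 43 of these changed by less than 10 points. At an unadjusted p under 0.05 there were 228 (24.8%, beside 16.5%). Among the small shifts was an acceptor not seen in wild type, described here because of its values. On the plus strand of chromosome 3, the acceptor at 73113215, 62 nt downstream of 73113153, had 0 of 383 wild-type reads, which allows a share of up to 0.783%. In S34F it had 9 of 126, 8 of 101 and 13 of 214 reads, or 7.14%, 7.92% and 6.07%. The edgeR adjusted p was 9.49e-05, and the pair fell short of a call because the change was 7.05 points. An acceptor without a read in all wild-type libraries was found in 4 members, and none lacked reads in all S34F libraries. These acceptors met the minimum of 10 reads through the S34F libraries alone, which include the deepest one. Their S34F reads were 10, 10, 30 and 10. Neither these counts nor the p-value just given is thus separate evidence of a gain in S34F. A further 33 members differed by 10 points or more without passing. The lowest library of these had a median of 29 reads, against 63.5 for the called members.

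Distance between the acceptors went with which of them was used, and with how often a call was made. At 10 to 20 nt and 21 to 30 nt the median upstream share in wild type was 14.9% and 10.7%, so the downstream acceptor was the usual one. At 31 to 50 nt and 51 to 100 nt it was 90.7% and 89.4%. Of the 305 members up to 30 nt apart 8 were called (2.62%, beside 2.91% of all pairs at 10 to 30 nt), 6 of them falls. Of the 615 members 31 nt or more apart 44 were called (7.15%, beside 5.94% of all pairs at those distances), 36 of them falls. The share of calls was 9.51% at 31 to 50 nt, beside 6.75% of all pairs there, and 5.14% at 51 to 100 nt, where all pairs had 5.29%. At 51 to 100 nt 16 of the 17 calls were falls, beside 49 of 53 over all pairs tested there. At 31 to 50 nt 20 of 27 were falls, beside 45 of 54. The 6 falls within 30 nt included the largest 3 of all, and the next largest was at 61 nt.

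**Figure D4:**
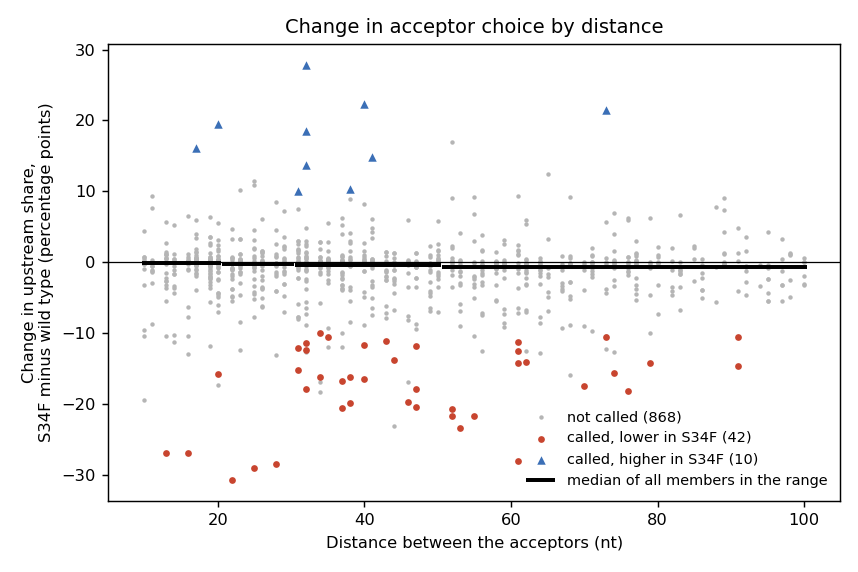
Change in upstream share (S34F minus wild type, percentage points) against the distance between the acceptors (nt) for the 920 members; thick bars are the medians in 4 ranges of distance. The medians go from -0.15 at 10 to 20 nt to -0.71 at 51 to 100 nt, and 44 of the 52 calls lie at 31 nt or more.

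The remainder of the distance after division by 3 sets which of the other reading frames results. Of 447 members with remainder 1, 31 were called (6.94%), 28 falls and 3 rises. Of 473 with remainder 2, 21 were called (4.44%), 14 falls and 7 rises. The median change was -0.41 and -0.39 points, and the difference between the remainders was not tested. All pairs tested, of which 2.85% were called, were not divided by remainder. Whether the difference is particular to the members is thus not known. Pairs that keep the frame were close to these values. Among 695 annotated pairs 12 to 99 nt apart at a multiple of 3, 51 were called (7.34%), 44 falls and 7 rises, with a median change of -0.56 points. Falls made up 80.8% of the calls among the frame-shifting pairs, 86.3% among the frame-preserving pairs and 84.9% among all pairs tested. No test of these differences was made, and nothing in them is claimed to be particular to pairs that shift the frame.

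Use of both acceptors in wild type and depth also went with the calls. Of the 214 members with an upstream share of 10% to 90% in wild type, 27 were called (12.6%, beside 7.43% of all pairs in that range), against 21 of 408 above 90% (5.15%, beside 2.01%) and 4 of 298 under 10% (1.34%, beside 0.596%). These sets differ in distance as well. At 10% to 90% the acceptors lay a median of 40 nt apart in the members and 6 nt apart in all pairs tested. All 21 calls above 90% were falls and all 4 under 10% were rises, the only directions in which a change of 10 points is possible there. With the members ordered by read number and divided into 4 equal sets, 18, 17, 12 and 5 were called from the fewest to the most reads. This order rests on the 10-point minimum: at an adjusted p under 0.05 alone the counts were 21, 24, 20 and 30. All pairs tested were not divided by read number. None of the 4 members with the most reads was called. Those on chromosome 16 shared a 5′ splice site and an acceptor. The 4 members had from 16736 to 44939 reads per library, and their main acceptor took at least 99.6% in wild type. For example, at 33240363 and 33240404 on chromosome 6 the upstream acceptor took 0.254% ± 0.0377 in wild type and 0.371% ± 0.0434 in S34F, with no overlap between the libraries (edgeR adjusted p = 0.107). The other 3 changed by at most 0.0413 points, with adjusted p-values from 0.764 to 0.888. Nearly all members had GT-AG introns (motif codes 1 and 2); the 4 GC-AG members had 0 calls by edgeR, with 0 at an adjusted p under 0.05 without the minimum difference.

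Libraries did not contribute evenly to the falls. S34F replicate 1 had the highest upstream share of the S34F libraries, that nearest to wild type, in 22 of the 42 falls, and replicates 2 and 3 in 10 each. Wild-type replicate 1 had the lowest share of the wild-type libraries in 26. Over the 42 falls the median share was 88.8%, 88.3% and 90.7% for wild type, against 70.7%, 70.7% and 64.0% for S34F. Leaving out wild-type replicate 1 gave 52 calls and leaving out S34F replicate 1 gave 50.

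Whether the reads of a pair as a whole changed was tested separately, since reading frame can bear on how long an mRNA lasts. The total of both junctions, relative to the library (edgeR with TMM scaling), changed in 8 members (0.870%, beside 0.742% of all pairs), 4 higher (0.435%, beside 0.352%) and 4 lower (0.435%, beside 0.391%) in S34F. The largest rise was at 22024552 and 22024587 on the plus strand of chromosome 22, 35 nt apart. It had 17.2, 8.83 and 7.02 CPM (reads of the pair scaled to a common library size) in wild type, against 54.7, 55.0 and 52.3 with S34F (log2 fold change 2.27, SE 0.27, adjusted p = 0.000717), with no call in acceptor choice (37.7% and 43.2% upstream). The pair held 8.40% of the reads of its 5′ splice site in wild type and 35.1% in S34F, and its wild-type libraries had 65, 33 and 20 reads. The largest drop was on the minus strand of chromosome 11 at 88059612, from 26.9, 66.1 and 56.2 to 9.96, 17.2 and 8.41 CPM (log2 fold change -2.12, SE 0.36, adjusted p = 0.0301). In both, all S34F libraries lay on the same side of all wild-type libraries.

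Acceptor choice and read total were both called in 1 member, the chromosome 1 pair at 2520360, with a log2 fold change of 1.19 (SE 0.26, adjusted p = 0.0479). At an unadjusted p under 0.05 the read total differed in 12 of the 52 pairs called for acceptor choice and in 162 of all 920 members. All pairs tested were not counted at this threshold, and a link between acceptor choice and read total was not tested. The median log2 fold change of the total was -0.07 over the 42 falls, -0.30 over the 10 rises and 0.02 over all members and over all pairs tested. The count of 8 was unstable. It was 4, 2 and 1 without wild-type replicates 1, 2 and 3, and 1, 16 and 1 without S34F replicates 1, 2 and 3. DESeq2 called 17, and the fit with the replicate block called 3.

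**Figure D5:**
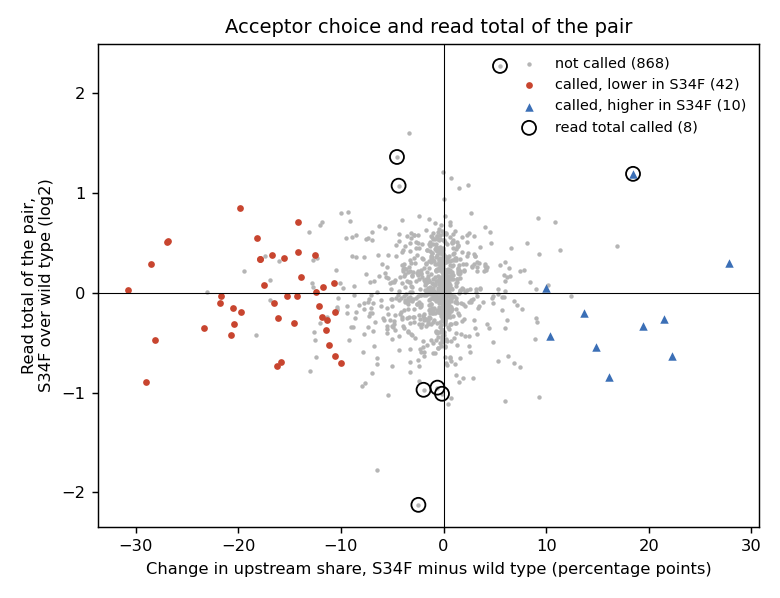
Log2 fold change of the read total of each pair (vertical axis, S34F over wild type) against the change in upstream share (horizontal axis, percentage points) for the 920 members; rings mark the 8 with a called read total. Of the rings, 1 surrounds a member called for acceptor choice, and the called falls are spread on both sides of 0 on the vertical axis.

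The limits of the selection cut through a continuous range of pairs, whose values on either side are given without a test. The 16 members exactly 10 nt apart had a median change of -0.10 points, and the 23 annotated pairs 8 nt apart, just outside, -0.01. The 6 members 100 nt apart had -0.97 and the 5 pairs just 1 nt wider -3.21. Members whose lowest library had 20 reads (13) had -1.28, and pairs with 19 (12) -5.31. For the less-used acceptor, 40 members with 10 reads over all libraries had -0.33 and 36 pairs with 9 had -0.24.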

How the data were processed

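Splice junctions were counted in 3 wild-type and 3 U2AF1 S34F libraries of K562 cells. The deposited tables, 1 per library, hold raw counts of uniquely mapped and multi-mapped reads per junction, aligned with STAR to hg19 per the submitters' processing notes; the STAR version, annotation and junction filters are not given in the sources used here. The largest overhang per junction, another deposited value, served only as a filter. Tables were joined on position, with 0 reads where a table does not list a junction. Upstream and downstream unique counts of each pair were tested with edgeR 4.0.16 (R 4.3.3; quasi-likelihood F-test, robust, legacy dispersion), with terms for each library, for which acceptor was counted and for how S34F alters that; SE is the log2 odds divided by the square root of F. The library term removes library size, so scaling has no bearing on the share test. Read totals used TMM. Alternatives were DESeq2 1.42.0, limma 3.58.1, other filters and definitions of neighbours, the replicate block and leaving out each library. Both tests were tested on simulated data. The rule for the share called 17% of 100 pairs seeded with a change of 1 in log2 odds. It called 81% of 100 seeded with a change of 2, and 0% of pairs without a seeded change. For the read total these were 61%, 100% and 0.264%, with changes in log2 units. In each simulation all pairs had 1 common spread between replicates, and changes in share were seeded only where both acceptors were well used. Pairs whose spread differs, or where 1 acceptor takes nearly all reads, were thus not represented. The percentages hold for the simulated setting and are not error rates of these data. Tables were handled with Python 3.11.15 and pandas 2.3.3. Replicate numbers did not pair the libraries: deviations of same-numbered libraries correlated at -0.0591, -0.0353 and -0.0408 across pairs. Replicates differed beyond sampling noise. Named pairs were, among called members, the 14 largest falls and 8 largest rises, plus the 4 members with the most reads; others named say so or are given as examples. Members and lists were chosen with earlier results of these data known. Acceptor sequences and gene names were not analysed here, because no hg19 sequence or annotation was used.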

Additional observations from a re-analysis of the deposited data

Results flagged for a closer look

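Multi-mapped reads, which the comparisons leave out, made up a larger part of the reads at the members in S34F. They were 2.47%, 2.54% and 2.48% of all reads at the 920 members in wild type and 2.64%, 2.58% and 2.82% in S34F, with means of 2.50% ± 0.0401 and 2.68% ± 0.127 (SD, n = 3 each). All S34F libraries lay above all wild-type libraries, by 0.032 points at the nearest (two-sided exact permutation p = 0.1, the smallest that 3 against 3 libraries allow). The intervals of the nearest libraries overlapped, reaching 2.59% for wild-type replicate 2 and starting at 2.53% for S34F replicate 2 (95% Clopper-Pearson, counting error only). Over all pairs tested the means were 3.30% ± 0.020 and 3.28% ± 0.0322. The source of the difference was not tested.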

How the results depend on the processing

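Depth limits precision: 276 members had under 50 reads in a library. Falls outnumbered rises under each of the 20 alternatives for the share test, and no called member changed direction in a fit that held it. The count of 52 became 30 with no low-count filter (2531 pairs at these distances tested), 95 without a minimum difference, 15 with a minimum of 20 points, 11 in DESeq2 and 2 in limma. Falls made up 100% of the calls with DESeq2 and limma and from 79.5% to 88.2% when a library was left out, where the count was from 34 to 52. Of the 52 members, 26 were called in all 6 of those fits. With the replicate block 42 members were called, all among the 52. The 8 changed read totals became 17 with DESeq2, 3 with the replicate block, 2 with at least 50 reads, and from 1 to 16 without a library. The cause of these differences was not tested.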

Other observations

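Reads to the same acceptors from other 5′ splice sites give a separate reading of acceptor choice. Only 55 of the 920 members had 20 or more such reads in every library, and 1 of these was a called member. At 140710461 and 140710418 on the minus strand of chromosome 7, 43 nt apart, the upstream share from the member's own 5′ splice site went from 94.3% ± 1.58 to 83.1% ± 2.58. From other 5′ splice sites the wild-type shares were 98.6%, 95.1% and 93.9%, against 86.7%, 69.6% and 93.0% with S34F, with 23 to 73 reads per library. The median change over the 55 members in the reads from other 5′ splice sites was -0.05 points.

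In 150 members an unannotated junction from the same 5′ splice site ended between the annotated acceptors. Of these 8 were called (5.33%), 7 falls and 1 rise, and of the other 770 members 44 were (5.71%). All pairs tested, of which 2.85% were called, were not divided in this way. The pair's junctions held nearly all reads of their 5′ splice site in most members, with a median of 99.3% in wild type and 99.1% in S34F.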
